A study of Mus musculus with 3 samples.

Results

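Among the cells of the mouse flexor digitorum longus (FDL) tendon, 233 of 19709 kept cells carried the myeloid signalling adaptors *Tyrobp* and *Fcer1g* with almost no transcript of the complement component C1q, and they are called C1q-lacking cells here. They were chosen on raw UMIs (unique molecular identifiers, 1 per captured transcript): at least 5 of *Tyrobp* and *Fcer1g* together, at most 3 of *C1qa*, *C1qb* and *C1qc*, none of *Cd3e*, *Cd3g* or *Cd3d*, and fewer than 10 of the tendon genes *Tnmd*, *Fmod*, *Kera* and *Cilp2*. Kept cells had 1000 to 5000 detected genes and at most 10% mitochondrial UMIs. The rule left 99 of 8357 kept cells of 6 M WT, 78 of 6554 of 6 M DTR, and 56 of 4798 of the aged group, 21 M B6. Where 3 values stand together without names, they are in this order of the libraries. It used values of the same cells that are described here, so every level of a gene is a description and not a test.

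The study asked what follows in tendon from the loss of Scleraxis-lineage cells, and how this compares with natural aging. Each group was 1 library of 16 pooled FDL tendons, digested with collagenases I and IV. The 6 M WT mice were Scx-Cre-; DTR F/+ and the 6 M DTR mice Scx-Cre+; DTR F/+, both on C57BL/6J with 5 daily injections of diphtheria toxin (DT). The 21 M B6 mice were C57/Bl6 with no treatment listed. The toxin receptor allele was thus shared by both young groups, and Scx-Cre, which acts in cells of the Scleraxis lineage in tendon and in other tissues of that lineage, switched it on in 6 M DTR only. The labels give 3 months for the young groups and the study's methods 6 months. Digestion took 120 min for 6 M WT and 90 min for the other two groups.

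Myeloid cells of a connective tissue are mostly resident macrophages, which make C1q, the recognition part of the classical complement pathway. Other myeloid cells make little of it: neutrophils and monocytes come from the blood, dendritic cells take up antigen and present it on MHC class II, and mast cells store proteases and histamine in granules. *Tyrobp* and *Fcer1g* encode adaptors with ITAM motifs through which many receptors of these cells signal, and natural killer (NK) cells use them too.

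The libraries held 148149903, 123918145 and 92707026 UMIs in 15536, 16099 and 12273 barcodes. C1q-lacking cells had medians of 9966 UMIs (range 2477 to 34987), 15962 UMIs (3459 to 37118) and 17804 UMIs (2200 to 32781), so those of 6 M WT were the shallowest. Barcodes over the mitochondrial limit made up 27.6%, 43.1% and 56.5% of the 3 libraries, and the median mitochondrial share of the C1q-lacking cells was 2.36%, 2.69% and 4.17%. Pairs of libraries shared 76, 65 and 61 barcodes, but no barcode was a C1q-lacking cell in more than 1 library, and 1, 1 and 2 C1q-lacking cells had a barcode that the paired library also held. Cells of 1 library are not replicates, and with 1 library per group there is no test between groups. Intervals are exact, at 95%. Where a count is 0, the share it allows is 3 counts of the total, which lies under the upper end of the exact interval. Both cover counting error only.

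The cells were leukocytes by genes that the rule did not use. At least 3 of the 6 pan-leukocyte genes *Ptprc*, *Cd52*, *Laptm5*, *Coro1a*, *Lcp1* and *Cd53* were detected in 97 of 99, 77 of 78 and 54 of 56 cells, and these genes summed to 3670, 4052 and 3734 counts per 1000000 UMIs (CPM), with *Cd52* the most abundant. The word myeloid did not hold for all of them, since 7 cells had the markers of NK cells, which are lymphocytes. C1q was at 0 UMIs in 74, 53 and 31 cells. Just inside the limit, 6, 4 and 4 cells held 3 C1q UMIs, and just outside it 0, 5 and 0 cells held 4. The adaptors had a median of 22, 22 and 33.5 UMIs per cell, with 4, 0 and 1 cells at the minimum of 5 and 5, 2 and 2 cells left out at 4. The *Cd3* genes removed 0, 4 and 0 cells and the tendon genes 10, 4 and 0.

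C1q-lacking cells were 1.18% (0.964 to 1.44), 1.19% (0.942 to 1.48) and 1.17% (0.883 to 1.51) of kept cells, with intervals that overlapped almost entirely. C1q-positive cells, which passed the same rule but had more than 3 C1q UMIs, were 6.15%, 16.1% and 9.48% of kept cells. C1q-lacking cells were therefore 16.2% (13.3 to 19.3), 6.89% (5.48 to 8.53) and 11.0% (8.39 to 14.0) of all cells that passed the rule at any level of C1q. Kept cells include tenocytes, which DT removes in 6 M DTR, and leave out barcodes over the mitochondrial limit, and the part of either in the shares of kept cells was not tested.

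Neutrophil genes stood out in 6 M WT and dendritic genes in the other two libraries. At least 1 UMI of the neutrophil genes *S100a8*, *S100a9* (the subunits of calprotectin) or *Csf3r* (the receptor for G-CSF) was found in 41 of 99 (41.4%), 6 of 78 (7.69%) and 7 of 56 cells (12.5%). Dendritic genes, namely *Flt3* (the receptor for the growth factor of dendritic cells), *Cd209a* (a lectin) and *Ccr7* (the receptor that guides cells to lymph nodes), were found in 20 (20.2%), 44 (56.4%) and 42 cells (75%). Monocyte genes (*Ly6c2*, *Plac8*) were found in 21 (21.2%), 9 (11.5%) and 7 cells (12.5%), and mast cell genes (*Cpa3*, *Kit*) in 9 (9.09%), 12 (15.4%) and 5 (8.93%). No gene of these 4 lists was found in 22, 23 and 5 cells, while 12, 14 and 4 cells carried 2 lists and 1, 1 and 3 cells carried 3.

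The counts with at least 3 UMIs were 28, 1 and 4 cells for neutrophil genes, 15, 35 and 34 for dendritic genes, 16, 4 and 6 for monocyte genes and 3, 5 and 3 for mast cell genes. Free RNA can place single UMIs in any droplet, and cells with tendon markers (at least 10 UMIs of the 4 tendon genes, fewer than 5 of the adaptors) give its level. Their median depth was 13165, 12772 and 11581 UMIs, and 8.84%, 0.536% and 0.494% of them carried a neutrophil gene, highest in 6 M WT, where *S100a8* was found in 201 of 5318. C1q-positive cells, with median depths of 16378, 13160 and 13913 UMIs, carried a neutrophil gene in 12.6%, 8.54% and 12.1%. At a minimum of 1 UMI the shares of C1q-lacking cells in 6 M DTR and 21 M B6 were at the level of these cells. With at least 3 UMIs, C1q-positive cells carried one in 1.75%, 0.190% and 0.659%, against 28.3%, 1.28% and 7.14% of C1q-lacking cells. The part of free RNA in these shares was not tested. Dendritic genes were found in 0.207% and 0.214% of tendon-marker cells of 6 M WT and 6 M DTR and in 0 of 1013 of 21 M B6, which allows a share of up to 0.296%. Monocyte genes were found in 0.357%, 0.536% and 0.197% of them and mast cell genes in 0.564%, 0.143% and 1.18%. In C1q-positive cells of 6 M WT and 6 M DTR, dendritic genes were found in 2.72% and 5.41%.

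Thinned to 3000 UMIs per cell, which left out 2 cells of 6 M WT and 1 of 21 M B6, C1q-lacking cells carried neutrophil genes in 33%, 5.13% and 5.45%, against 3.05%, 0.144% and 0.198% of tendon-marker cells and 3.16%, 2.09% and 2.42% of C1q-positive cells. Dendritic genes were found in 14.4%, 41.0% and 60% of the thinned cells. The order of the libraries was thus the same at equal depth for these lists. Monocyte genes were found in 18.6%, 7.69% and 12.7% of thinned cells and mast cell genes in 3.09%, 6.41% and 3.64%.

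Each cell was then given to the list of 6 marker genes of which it showed most, if it showed at least 3 and no other list had as many. Such a class is a range of cells and not a type. Over all libraries 64 cells fell in the dendritic class, 53 in the macrophage class, 26 in the neutrophil class and 18 in the monocyte class. NK cells made up 7, mast cells 5 and mature dendritic cells 5. Non-classical monocytes made up 2, and cDC1 (cross-presenting dendritic cells) and osteoclasts 1 each. A further 22 cells were tied and 29 reached no list. The lists for basophils, eosinophils, plasmacytoid dendritic cells, B cells and T or innate lymphoid cells took no cell in any library.

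**Figure D1:**
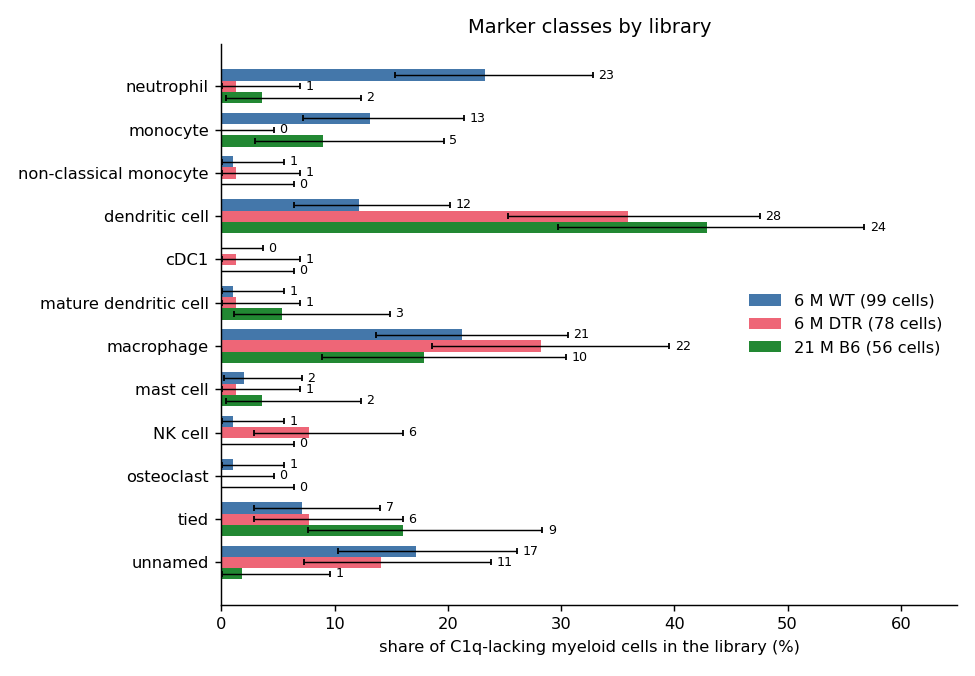
Share of C1q-lacking cells in each marker class (percent of the 99, 78 and 56 cells of the 3 libraries), with exact 95% intervals as error bars and the number of cells beside each bar. The neutrophil class holds 23 cells in 6 M WT and 1 and 2 in the others, and the dendritic class 12, 28 and 24.

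The neutrophil class held 23.2% (15.3 to 32.8), 1.28% (0.0325 to 6.94) and 3.57% (0.435 to 12.3) of the C1q-lacking cells. The dendritic class held 12.1% (6.42 to 20.2), 35.9% (25.3 to 47.6) and 42.9% (29.7 to 56.8). In both classes the interval of 6 M WT did not overlap with those of the other libraries, while 6 M DTR and 21 M B6 overlapped with each other. Thinned to 3000 UMIs per cell the dendritic class was smaller, at 4.12% (1.13 to 10.2), 15.4% (8.21 to 25.3) and 25.5% (14.7 to 39.0), and the intervals of 6 M WT and 6 M DTR then overlapped. The 6 genes of the dendritic list were not confined to C1q-lacking cells. At least 3 UMIs of them were found in 40.4% and 70.5% of C1q-lacking cells of 6 M WT and 6 M DTR. In C1q-positive cells of these libraries the shares were 29.4% and 32.8%, and 50.6% and 60.2% at a minimum of 1 UMI. The monocyte class held 13 cells in 6 M WT, 5 in 21 M B6 and 0 of 78 in 6 M DTR, which allows a share of up to 3.85%. Clustering (Leiden) of the same cells gave a monocyte cluster of 6, 2 and 6 cells, so the absence in 6 M DTR did not hold under it. A further cluster of 37, 6 and 0 cells had 2 raised markers, *Ly6c2* and *Chil3* of the monocyte list, and stayed unnamed. Whether the excess in 6 M WT held thus depended on which of these clusters was counted. The macrophage class held 21, 22 and 10 cells (21.2%, 28.2% and 17.9%), with overlapping intervals. Thinned to 3000 UMIs it held 14 of 97, 9 of 78 and 3 of 55 cells, so which library was highest depended on depth. Cells at the minimum of 3 genes were 5, 0 and 0 in the neutrophil class, 4 in the monocyte class of 6 M WT, 1, 3 and 3 in the dendritic class and 7, 9 and 0 in the macrophage class. Ties between the dendritic and macrophage lists made up 2, 3 and 7 cells.

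The sex of the cells moved with the libraries. Of the cells with *Xist* or Y-linked transcripts but not both, 91.4% of the C1q-lacking cells of 6 M WT had *Xist* (64 against 6 cells), 30% of those of 6 M DTR (18 against 42), and 64% of those of 21 M B6 (32 against 18). Over all kept cells the shares were 71.9%, 40.9% and 55.8%, and in C1q-positive cells 68.8%, 39.7% and 66.4%. In 6 M WT the neutrophil class had 7 such cells with *Xist* and 0 with Y genes, with 16 of 23 showing neither, and the monocyte class had 9 and 0. Among cells with *Xist* and no Y gene alone, a choice made after the data were seen, the neutrophil class held 10.9% (4.51 to 21.2) in 6 M WT and 0% in the others, with intervals that overlapped, and the dendritic class of 6 M DTR held 55.6%. Sex, digestion time and group cannot be told apart over these pools.

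The 23 neutrophil-class cells of 6 M WT were small, with medians of 6130 UMIs and 1140 genes, close to the lower limit of genes. Their *S100a8* summed to 4240 UMIs and was found in all 23, and *S100a9* summed to 6851 UMIs, also in all 23. Genes outside the list that led this class over the other C1q-lacking cells were *G0s2*, an inhibitor of lipolysis, and *Lcn2*, a siderophore-binding granule protein that tendon-marker cells also carried, at 249 CPM in 6 M WT. In all C1q-lacking cells *S100a8* stood at 3673, 80.4 and 509 CPM and was found in 36, 2 and 3 cells. A single cell of 6 M DTR held 99.0% of the *S100a8* UMIs of that library. *Retnlg*, a resistin-like protein of neutrophils, was found in 11 cells of 6 M WT and 2 of 21 M B6, and in 0 of 78 of 6 M DTR.

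Chemokine and IL-1 transcripts were abundant in the neutrophil class of 6 M WT. *Cxcl2*, which attracts neutrophils, reached 109235 CPM there, against 39844 CPM in the macrophage class and 3208 CPM in the dendritic class of the same library. *Ccl3* stood at 17080 CPM and *Il1b*, the precursor of interleukin 1β, at 11446 CPM in the neutrophil class. The 11 MHC class II genes stood at 407 CPM in these cells and at a median of 4.20 UMIs per 10000 (range 0 to 19.8), the lowest of the 4 large classes. Set against the macrophage class of 6 M WT, 7 of 7 tested MHC class II genes were at least 2-fold lower, where 53.6% of all genes were, and 4 of 16 chemokine ligands (*Ccl3*, *Ccl4*, *Cxcl2*, *Cxcl3*) at least 2-fold higher, where 11.9% of all genes were. The receptor *Trem1*, which signals through *Tyrobp*, was found in 20 of the 23 cells at 1044 CPM.

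**Figure D2:**
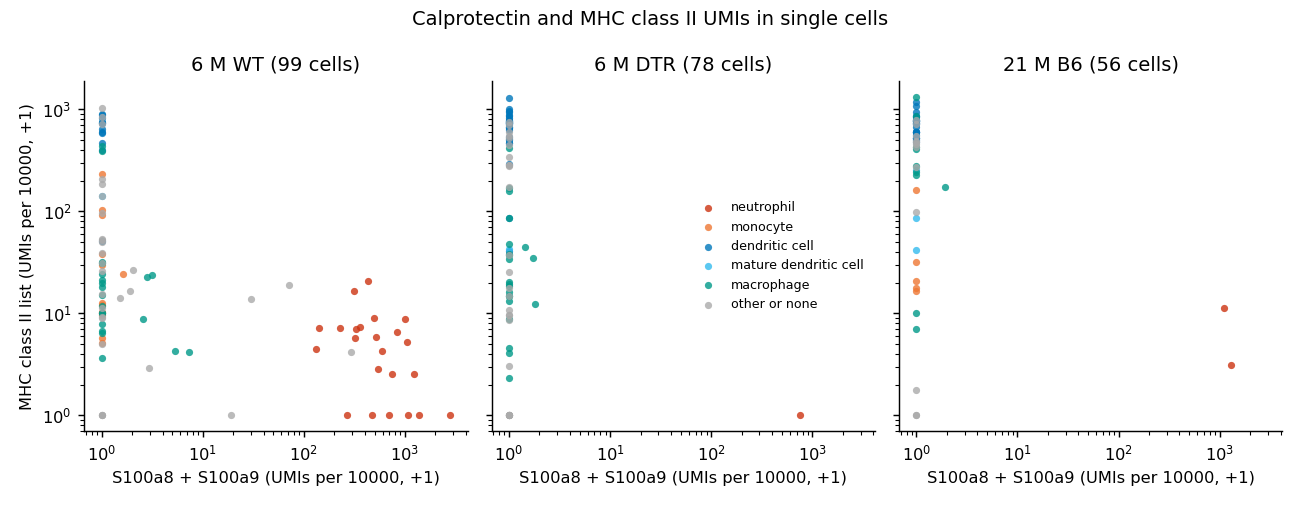
Each point is 1 C1q-lacking cell, placed by its calprotectin (*S100a8* and *S100a9*, x axis) and MHC class II UMIs (y axis), both per 10000 UMIs with 1 added on log scales, coloured by marker class, 1 panel per library. Neutrophil-class cells sit at the lower right, 23 of them in 6 M WT, and dendritic-class cells at the upper left.

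Dendritic-class cells were the largest of the 4 main classes, with medians of 20914, 22464 and 20418 UMIs. *Cd209a* was found in 12 of 12, 23 of 28 and 23 of 24 of them and *Zbtb46*, a transcription factor of classical dendritic cells, in 9, 20 and 15. The MHC class II genes summed to 60983, 64163 and 69432 CPM, with medians of 681, 729 and 723 UMIs per 10000 and lowest cells at 49.6, 39.8 and 474. These levels were near each other: 1 of 10 MHC class II genes (*H2-Ob*) was at least 2-fold higher than in 6 M WT in 6 M DTR, and the same gene in 21 M B6, where 8.04% and 8.26% of all genes tested in these cells were that much higher. The 14 genes of resident macrophages had medians of 10.7, 5.27 and 5.70 UMIs per 10000 in the dendritic class and 8.86, 4.85 and 8.68 in the macrophage class, so their sum did not set these classes apart. *Klrd1*, which encodes an NK cell receptor subunit, was found in 11 of 12, 19 of 28 and 22 of 24 dendritic-class cells and so did not mark NK cells here.

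A subset of dendritic-class cells in 6 M DTR carried *Cd207* (langerin, a lectin of Langerhans cells and some dendritic cells). It had 372 UMIs in 11 of 28 cells of 6 M DTR, 0 UMIs in 12 cells of 6 M WT and 3 UMIs in 1 of 24 cells of 21 M B6. *Epcam*, an adhesion molecule of the same cells, had 67 UMIs in 14 cells, 0 UMIs and 10 UMIs in 4 cells. In 21 M B6 the macrophage class held 82 *Cd207* UMIs in 2 cells. Over all C1q-lacking cells *Cd207* was at 28.8, 303.6 and 91.8 CPM, in 6 M WT from 1 cell alone. *Il12b*, a subunit of interleukins 12 and 23, was found in 3, 8 and 1 dendritic-class cells at 404.6, 1123 and 15.2 CPM. Of the interferon-response genes in this class, 3 of 9 tested were at least 2-fold lower than in 6 M WT in 6 M DTR, with *Ifit2* higher, and 5 of 7 in 21 M B6, where 4.75% and 7.81% of all genes were lower. Few cells carried them: *Rsad2* was found in 2 of the 12 cells of 6 M WT, and 1 cell held 89.2% of its UMIs.

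Mature dendritic cells, which have taken up antigen and are leaving the tissue, were marked by *Ccr7* and the chemokine *Ccl22*. *Ccr7* stood at 287.7, 377.8 and 486 CPM and was found in 13, 17 and 19 cells, more than the 1, 1 and 3 cells of the mature class. Most of the rest were in the dendritic class, where 8, 13 and 13 cells carried it. Leiden clustering gave a larger mature dendritic group, of 4, 9 and 6 cells. *Ccl22* stood at 797, 214 and 189 CPM, but single cells held 60.6%, 25.3% and 81.7% of these UMIs.

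Monocyte-class cells were chosen by *Ly6c2*, *Plac8*, *Ifitm6* and *Chil3*, a chitinase-like protein, among other genes. Outside the list, *Gm9733*, *Apoc2*, *Nrg1* and *Hp* led the class over the other C1q-lacking cells. *Plac8* was found in 12 of the 13 cells of 6 M WT and all 5 of 21 M B6, and in no cell of the dendritic or neutrophil classes of any library. *Chil3* was at 1696 CPM in the monocyte class of 6 M WT and 576 CPM in that of 21 M B6. Over all C1q-lacking cells *Chil3* was found in 29 cells of 6 M WT and in 3 and 4 of the others, at 265, 23.2 and 41.0 CPM. In 6 M WT it was thus also in 9 macrophage-class and 5 unnamed cells.

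Some genes were found mainly in monocyte-class, macrophage-class and unnamed cells of 6 M WT. *Inhba*, a subunit of activin A, stood at 1529, 91.2 and 13 CPM and was found in 39, 14 and 8 cells, but it was also found at 105.7 to 152.3 CPM in tendon-marker cells. *Serpinb2*, an inhibitor of plasminogen activators, stood at 1175, 76.5 and 32.4 CPM in 32, 9 and 6 cells. In tendon-marker cells *Serpinb2* stood at 1.67, 0.474 and 0.391 CPM.

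Mast cells were few and clear. *Cpa3*, a carboxypeptidase of their granules, had 51, 38 and 35 UMIs, all in the 2, 1 and 2 cells of the mast cell class, and none in any C1q-positive cell. *Kit*, the receptor for stem cell factor, was less specific, since 12 cells of 6 M DTR carried it, 8 of them in the dendritic class and 1 in the mast cell class. The chymases *Cma1* and *Mcpt4* and the tryptase *Tpsb2* led the class, but they, *Cpa3* and *Kit* are on the list that chose it. Outside that list, *Mrgprb1*, *Tph1*, *Cyp11a1* and *Tpsab1* led the class over the other C1q-lacking cells, each found in all 5 cells. *Cma1* also had 12 UMIs in 5 NK-class cells of 6 M DTR.

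NK-class cells were found mainly in 6 M DTR, with 6 of 78 (7.69%, 2.88 to 16.0), against 1 of 99 in 6 M WT and 0 of 56 in 21 M B6, which allows a share of up to 5.36%. *Gzma*, a protease of cytotoxic granules that is on the list that chose the class, had 186 UMIs in these 6 cells and none elsewhere in 6 M DTR. It had 2 UMIs in 6 M WT, a ratio of 84.9 (23.2 to 706), and 0 UMIs in 21 M B6. The receptor gene *Ncr1*, also on the list, was found in only 2 of the 6 cells, with 2 UMIs. Outside the list, *Il2rb*, *Nkg7* and *Sh2d2a* led the class over the other C1q-lacking cells. Each was found in all 7 NK-class cells of the libraries together.

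**Figure D3:**
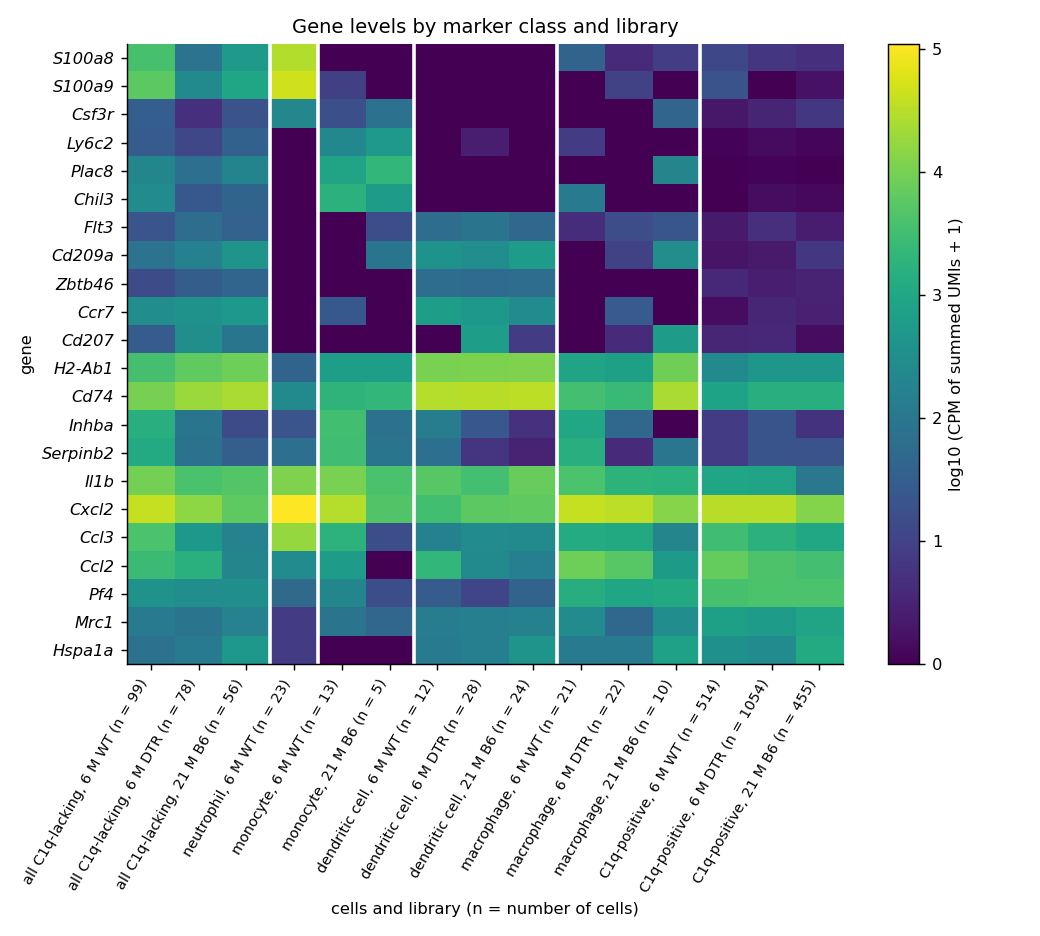
Levels of 22 genes (rows) as log10 of CPM plus 1 (colour), from UMIs summed over all C1q-lacking cells, over cells of 4 marker classes (libraries with 5 or more cells), and over C1q-positive cells (columns, with the number of cells). *S100a8* and *S100a9* are brightest in the neutrophil class of 6 M WT, and *Cd74* and *H2-Ab1* in the dendritic class of all 3 libraries and in the macrophage class of 21 M B6.

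Macrophage-class cells were led over the other C1q-lacking cells by *Folr2*, *Gdf15*, *Pf4* and *Ccl2*, and then by *Pmp22*, *Fermt2*, *Serpinb6a*, *Ctsk* and *Aqp1*, of which *Pmp22* is also on the Schwann cell list. *Pf4*, a platelet and macrophage chemokine, was found in 17 of 21, 21 of 22 and 7 of 10 of them at 1365, 974 and 1160 CPM, against 3758, 4148 and 4174 CPM in C1q-positive cells. In tendon-marker cells *Pf4* was found in 7.69%, 12.3% and 8.79%, at 7.03, 12.7 and 8.76 CPM. UMIs of macrophage genes were common there: at least 1 UMI of the 6 macrophage-list genes was found in 48.2%, 70.7% and 62.8% of tendon-marker cells and at least 3 UMIs in 16.6%, 34.5% and 29.5%, and the part of such UMIs in the calls of this class, of which 7 and 9 cells in the young libraries had the minimum of 3 genes, was not tested. The MHC class II genes summed to 7553, 5480 and 53001 CPM in this class, with medians of 14.2, 18.9 and 258 UMIs per 10000 and ranges of 2.65 to 439.5, 1.30 to 417 and 6.04 to 1323. The ranges overlapped, and in 21 M B6 some cells of the class carried dendritic genes: *Cd209a* was found in 3 of 10 and *Mgl2*, a lectin of dendritic cells and macrophages, in 5 of 10, against 0 and 2 of 21 in 6 M WT. Of 7 tested MHC class II genes, 6 were at least 2-fold higher in this class in 21 M B6 than in 6 M WT, where 6.91% of all genes were higher and 17.3% lower, and 2 (*H2-Aa*, *H2-DMb1*) were lower in 6 M DTR, where 13.2% were higher and 8.14% lower. The dendritic class had at least 2-fold higher MHC class II genes than the macrophage class in 6 of 7, 9 of 10 and 1 of 10 tested, where 11.4%, 11.6% and 8.07% of all genes were higher.

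The unnamed cells numbered 17, 11 and 1. In the young libraries their *Il1b* stood at 22457 and 13244 CPM, above the dendritic and macrophage classes of the same libraries, with medians over cells of 231 and 49.2 UMIs per 10000 for the 8 IL-1 and inflammasome genes. In 6 M WT 12 of the 17 carried *Inhba*. Over all 29 cells the genes that led over the other C1q-lacking cells included genes of connective tissue: *Myoc* stood at 1043 against 41.4 CPM and was found in 20 cells, and the tenocyte gene *Comp* at 339 against 52.2 CPM in 18 cells, with *Fbln2*, *Ccdc80* and *Cilp* also among the leaders. Their part in the levels of this class was not tested.

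To see how C1q-lacking cells differed from the main myeloid population, they were set against C1q-positive cells of the same library. The C1q genes chose both groups and are left out. Of 2743 genes with at least 50 CPM and 20 UMIs in 1 of the groups in each library, 143 (5.21%) were at least 2-fold higher in C1q-lacking cells in all 3 libraries and 210 (7.66%) at least 2-fold lower.

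Summed over cells, MHC class II genes were higher and most resident macrophage genes lower in each library. In C1q-lacking cells the MHC class II genes summed to 21075, 37948 and 52243 CPM, and in C1q-positive cells to 2725, 4382 and 4340 CPM, ratios of 7.73, 8.66 and 12. The median cell had 13.1, 162 and 493 MHC class II UMIs per 10000 in C1q-lacking cells and 11.8, 18.7 and 15 in C1q-positive cells, so in 6 M WT the median cells were close and the sum was carried by a part of the cells, with the dendritic class at a median of 681. In each library 9 of 10 tested genes were at least 2-fold higher, where 10.7%, 15.7% and 9.78% of all genes were. The median log2 ratios of the list were 3.68, 3.67 and 3.92, beside -0.23, 0.01 and -0.14 for all genes. Of 14 resident macrophage genes, 13, 12 and 13 were at least 2-fold lower, where 17.9%, 10.6% and 19.2% of all genes were, with medians of -4.03, -3.59 and -5.30. *Cd163*, a scavenger receptor for haemoglobin, was not 2-fold lower in 6 M DTR, at 39.4 against 57.2 CPM. *Timd4*, a receptor for phosphatidylserine, was at least 2-fold higher in C1q-lacking cells of both young libraries, at 161 against 23.2 CPM and 110.5 against 9.12 CPM. In these cells *Timd4* was mainly in the dendritic class, in 7 of 12 and 12 of 28 cells.

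The gene furthest down was *Lyve1*, a hyaluronan receptor of vessel-associated macrophages, with 5, 1 and 7 UMIs in C1q-lacking cells and 9761, 9044 and 10745 in C1q-positive cells. *F13a1*, the coagulation factor XIII A chain, had ratios of 0.0443 (0.0334 to 0.0578), 0.0160 (0.00950 to 0.0254) and 0.0291 (0.0214 to 0.0387). *Cbr2*, *Stab1*, *P2ry12*, *Gpr34*, *Rasgrp3*, *Gas6*, *Slco2b1* and *Folr2* were the other 8 of the 10 lowest. The 10 highest were *Plac8*, *S100a9*, *Cma1*, *Ccr7*, *Klrk1*, *Cd209a*, *Klrd1*, *Ccl22*, *Mcemp1* and *Il4i1*. Some of these rested on few cells: 1 cell held 99.0% of the *S100a9* UMIs of 6 M DTR, 69.6%, 89.5% and 71.1% of those of *Cma1*, and 70% of those of *Plac8* in 6 M DTR. *Cd209a* had ratios of 102 (47.7 to 261), 119 (75.4 to 200) and 71.9 (51.2 to 104), and *Ccr7* of 627 (243 to 2313), 155 (111 to 224) and 251 (146 to 476).

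**Figure D4:**
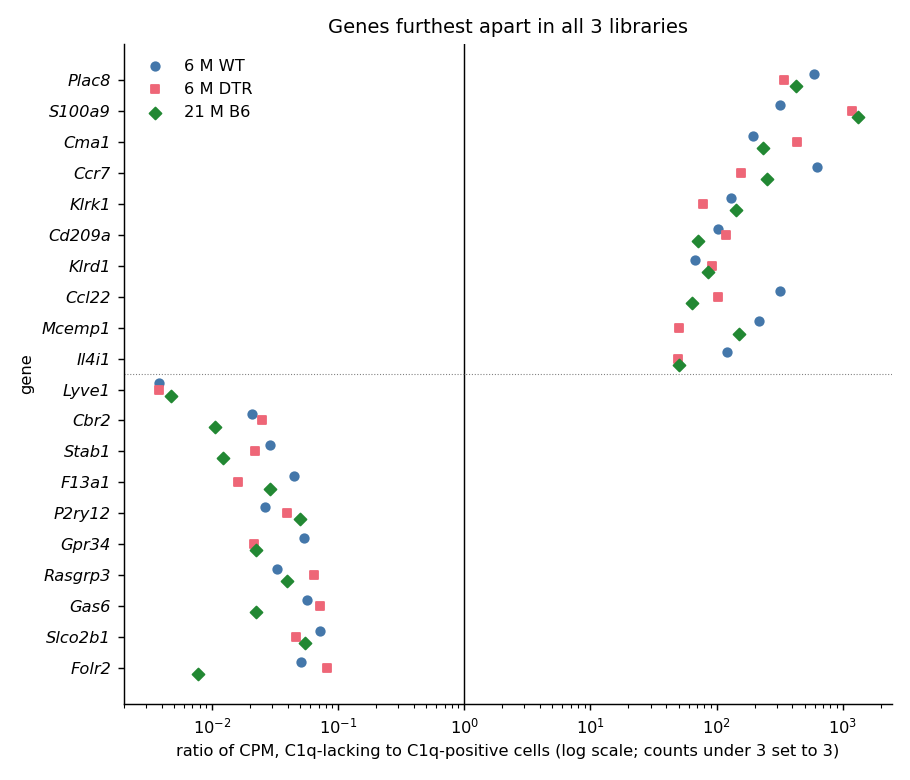
Ratio of CPM in C1q-lacking to C1q-positive cells (x axis, log scale, counts under 3 set to 3) for the 10 highest and 10 lowest genes over 3 libraries (y axis, 1 marker per library). All 3 markers of each gene lie on the same side of 1, a side by which the genes were ranked.

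*Il1b* was higher in each library, while its list was mixed. *Il1b* stood at 9595, 3818 and 4925 CPM in C1q-lacking cells, in 89, 48 and 41 cells, and at 905, 875 and 99.0 CPM in C1q-positive cells. Of the 8 IL-1 family and inflammasome genes, 4, 2 and 3 were at least 2-fold higher and 0, 1 and 2 lower, with median log2 ratios of 0.93, -0.33 and 0.63, so the median in 6 M DTR had the opposite sign to *Il1b*. *Cxcl2* had no common direction, with 40108, 15149 and 6246 CPM in C1q-lacking cells and 31798, 31117 and 12671 CPM in C1q-positive cells. Of 14 immediate early genes, which respond within minutes to stimuli and to tissue digestion, 0 were at least 2-fold higher and 5, 11 and 4 lower, with median log2 ratios of -0.87, -1.15 and -0.39. Beside the 17.9%, 10.6% and 19.2% of all genes that were lower, the count in 6 M DTR was far above this share and that in 21 M B6 near it. Costimulatory ligands of T cells were at least 2-fold higher in 4 of 8, 4 of 8 and 5 of 7 tested, *Cd80* among them in each library, where 10.7%, 15.7% and 9.78% of all genes were higher.

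Next, C1q-lacking cells of 6 M DTR were compared with those of 6 M WT. Neutrophil genes and most chemokine ligands were lower in 6 M DTR and most cell cycle genes higher, while the MHC class II genes were higher in sum and 3 of 10 reached 2-fold. Of 8107 genes tested, 12% were at least 2-fold higher and 7.56% at least 2-fold lower, with a median log2 ratio of 0.17. All comparisons of sums over unequal mixtures of classes reflect which cells were present as well as their levels, and these cannot be told apart in the sums.

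Of the neutrophil genes, all 6 were at least 2-fold lower in 6 M DTR, and *S100a8* had a ratio of 0.0219 (0.0178 to 0.0266). Granule proteins were lower in 5 of 7 tested (*S100a8*, *S100a9*, *Lcn2*, *Mmp8*, *Mmp9*), with a median of -3.55. Of 18 chemokine ligands, 10 were lower (*Ccl3*, *Ccl4*, *Ccl6*, *Ccl9*, *Ccl12*, *Ccl22*, *Ccl24*, *Cxcl2*, *Cxcl3*, *Ppbp*) and *Cxcl10* higher, with a median of -1.32, and the list summed to 28360 CPM against 65425 CPM in 6 M WT, a ratio of 0.433 (0.428 to 0.439). *Ccl3*, which attracts monocytes and lymphocytes, stood at 484 CPM in 41 cells against 4025 CPM in 78 cells. Without the neutrophil and monocyte classes, a choice made after the data were seen, 9 chemokine ligands were lower.

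IL-1 family genes were lower in 3 of 8: *Il1b* had a ratio of 0.398 (0.385 to 0.412), *Il1a* of 0.195 (0.171 to 0.222) and *Il1rn*, the receptor antagonist, of 0.129 (0.112 to 0.148). Genes of the list of ITAM adaptors, their receptors and linked genes such as *Syk* were lower in 7 of 14 tested, with a median of -1.0. Among them was *Trem1*, at 32.5 CPM against 206.5 CPM. Pattern recognition receptors were lower in 5 of 9 (*Tlr4*, *Tlr6*, *Tlr7*, *Tlr13*, *Nod1*), with a median of -1.52. *Csf3*, the growth factor of neutrophils, had 0 UMIs in 6 M DTR against 119 UMIs in 15 cells of 6 M WT.

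The MHC class II sum was 37948 CPM in 6 M DTR against 21075 CPM, a ratio of 1.80 (1.77 to 1.83), and 3 of 10 genes (*H2-DMb2*, *H2-Ob* and *Ciita*, the master regulator of these genes) were at least 2-fold higher, with a median of 0.87. With each cell weighted equally the number was 9, with C1q at 0 UMIs 5, and without the neutrophil and monocyte classes 2. The median cell had 162 MHC class II UMIs per 10000 in 6 M DTR and 13.1 in 6 M WT, with ranges of 0 to 1281 and 0 to 1042 that overlapped. *Flt3* was 3.01-fold higher (1.88 to 4.96), found in 34 of 78 against 13 of 99 cells, and *Mgl2* 2.64-fold higher (2.30 to 3.04). Cell cycle genes were higher in 7 of 8 tested, with a median of 2.19, but were low in sum, at 365 against 131 CPM. In the dendritic class they summed to 440.5 CPM, against 159 CPM in that of 6 M WT. *Mfge8*, a bridging protein for the uptake of dying cells, had a ratio of 13.2 (9.02 to 20.2), in 37 against 17 cells.

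Haemoglobin transcripts stood at 305, 7276 and 31.3 CPM in the C1q-lacking cells. In 6 M DTR 1 dendritic-class cell of 37118 UMIs held 9117 of the 9417 haemoglobin UMIs (96.8%). In 6 M WT 1 monocyte-class cell held 81.7% of them. Without the top cell of each library they stood at 56.1, 239 and 28.5 CPM. The 5 erythroid genes were higher in C1q-positive cells, at 4324, 3859 and 5260 CPM, and in tendon-marker cells, at 976, 3911 and 953 CPM, except against 6 M DTR as summed. *Ctsk*, a collagen-degrading protease of osteoclasts, stood at 289.7 CPM in 18 cells of 6 M DTR, 63.5 CPM in 11 cells of 6 M WT and 2.16 CPM in 2 cells of 21 M B6.

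Finally, C1q-lacking cells of 21 M B6 were set against the same 6 M WT cells, so the 2 comparisons share their control. Of 7380 genes tested, 7.4% were at least 2-fold higher and 12.5% at least 2-fold lower, with a median log2 ratio of -0.04. Most MHC class II genes tested were higher, and most chemokine ligands lower.

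Of the MHC class II genes, 9 of 10 were at least 2-fold higher in 21 M B6, with a median of 1.29 and a sum of 52243 against 21075 CPM, a ratio of 2.48 (2.44 to 2.52). *Cd74*, the invariant chain, was found in 49 of 56 cells at 25272 CPM against 59 of 99 cells at 10058 CPM. The median cell had 493 MHC class II UMIs per 10000, and its range of 0 to 1323 overlapped with that of 6 M WT. Without the neutrophil and monocyte classes 7 genes were higher, and with C1q at 0 UMIs 5. Between 21 M B6 and 6 M DTR none of the 10 genes differed 2-fold, where 3.79% of all genes were higher in 21 M B6 and 13.2% lower. *Cd209a* was 4.82-fold higher than in 6 M WT (3.84 to 6.09) and *Mgl2* 3.89-fold (3.39 to 4.48).

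Chemokine ligands were at least 2-fold lower in 12 of 19 tested, with a median of -2.08, and summed to 13240 CPM against 65425 CPM, a ratio of 0.202 (0.199 to 0.206). *Cxcl2* stood at 6246 CPM against 40108 CPM and *Ccl3* at 171 CPM, of which 1 cell held 62.7%, against 4025 CPM. Without the neutrophil and monocyte classes the number was again 12. *Inhba* had a ratio of 0.00848 (0.00437 to 0.0148), *Serpinb2* of 0.0276 (0.0185 to 0.0396) and *Il1a* of 0.0309 (0.0210 to 0.0438). Interferon-response genes were lower in 5 of 9 tested, with a median of -1.20, *Isg15* among them with a ratio of 0.402 (0.343 to 0.469).

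Heat shock genes were higher in 3 of 14 (*Hspa1a*, *Hspa1b*, *Hsph1*) and lower in 2 (*Hspb1*, *Cryab*), with a median of 0.46. Of all genes 7.4% were higher and 12.5% lower, so the count of lower heat shock genes was near that share. *Hspa1a*, an inducible chaperone, stood at 79.6, 114 and 482 CPM, a ratio to 6 M WT of 6.06 (4.84 to 7.65) in 21 M B6. It was also highest in that library in C1q-positive cells, at 333.5, 264 and 1190 CPM, and in tendon-marker cells, at 69.2, 82.2 and 957 CPM. *Gm42418*, whose locus overlaps ribosomal RNA, stood at 10724, 7678 and 36132 CPM and was likewise highest in 21 M B6 in C1q-positive and tendon-marker cells. Cell cycle genes were higher in 7 of 8 tested, where 7.4% of all genes were higher. *Top2a*, a topoisomerase of dividing cells, had 1, 15 and 36 UMIs in 1, 7 and 9 cells.

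Markers of other cell types were low in the C1q-lacking cells but not absent. The 6 tenocyte genes (*Thbs4*, *Comp*, *Chad*, *Col1a1*, *Col1a2*, *Fibin*) summed to 432, 241 and 77.8 CPM, with *Col1a2* the most abundant in 6 M WT and *Comp* in the others, against 23832 CPM in tendon-marker cells of 6 M WT. At least 3 of them were found in 41, 26 and 1 cells. Endothelial genes summed to 18.6, 39.4 and 94.0 CPM, with *Flt1* the most abundant and *Cdh5*, *Cldn5* and *Egfl7* at 0 in 21 M B6. In 21 M B6 *Flt1* alone stood at 89.6 CPM, against 8.76 CPM in tendon-marker cells. Genes of epitenon summed to 27.9, 49.4 and 48.6 CPM, of mural cells to 31.3, 27.0 and 9.72 CPM, and of muscle to 6.77, 29.4 and 35.6 CPM, with *Myod1*, *Myf5* and *Pax7* at 0 in each library. Schwann cell genes summed to 218, 291 and 107 CPM, mostly *Pmp22*, with *Sox10* and *Cdh19* at 0 in each library. *Pmp22* stood at 746, 798 and 705 CPM in C1q-positive cells and at 470, 454 and 385 CPM in tendon-marker cells. It thus did not mark Schwann cells here. The part of these transcripts in the differences between libraries was not tested.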

How the data were processed

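FDL tendon cells were profiled by droplet 3′ single-cell RNA sequencing, 1 library per group. The deposited values were raw UMI counts per gene and barcode, which the authors made with Cell Ranger (version 2.1.1 in the submitters' processing notes, 6.0.1 in the file headers). The genome build was not given in the sources used here. The members and gene lists were chosen with earlier results of these data known. Cells were kept with 1000 to 5000 genes and at most 10% mitochondrial UMIs. Doublets were called with Scrublet and left in. UMIs were summed over cells and scaled to CPM. A gene was tested in a comparison with at least 10 UMIs in 1 of its groups and ranked with at least 50 CPM and 20 UMIs. The named genes were the rule's genes, those of the fixed lists and the 10 highest and lowest ranked ratios. Other genes were named after their values were seen. The interval of a ratio was the exact conditional binomial one and that of a share the Clopper-Pearson one. The steps were tested on simulated data. 2 list genes, *Clec7a* and *Mx1*, were not analysed here. Scanpy 1.11.5, matplotlib 3.10.9, pandas 2.3.3, scipy 1.17.1 and numpy 2.4.6 were run under Python 3.11.15. Alternatives changed the filters, the rule, the depth, the scaling and the classes.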

Additional observations from a re-analysis of the deposited data

Results flagged for a closer look

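Neutrophil transcripts were also found in barcodes that the minimum of 1000 genes left out. In 6 M WT, 69 of 2163 barcodes under this minimum and within the mitochondrial limit (3.19%, 2.49 to 4.02) held at least 10 UMIs of *S100a8* and *S100a9*, with medians of 1076 UMIs and 448 genes. In 6 M DTR there were 2 of 1943 (0.103%), and in 21 M B6 0 of 186, which allows a share of up to 1.61% (3 counts of the total). Of the 2163 barcodes, 36 met the rule in all but the number of genes, and 19 of these 36 fell in the neutrophil class. With a minimum of 500 genes, 6 M WT had 124 C1q-lacking cells, 38 of them in the neutrophil class. The 3 libraries differed in how many barcodes they held under the minimum, and the part of this in the shares was not tested.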

How the results depend on the processing

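No paired analysis was possible because each group was 1 library, so no difference between groups could be tested, and the classes of few cells limit what their levels show. With C1q at 0 UMIs, C1q-lacking cells were 0.885%, 0.809% and 0.646% of kept cells and the MHC class II genes at least 2-fold higher than in 6 M WT numbered 5 in 6 M DTR (3 as reported) and 5 in 21 M B6 (9 as reported). A mean of CPM per cell gave 9 in 6 M DTR, and moved the median log2 ratio of all genes from 0.17 to 0.33. With at least 10 UMIs of the adaptors the share in 6 M WT was 0.945%. A mitochondrial limit of 5% gave a share of 1.59% and a neutrophil class of 0% in 21 M B6. Thinned to 3000 UMIs, the dendritic class held 4.12%, 15.4% and 25.5%, and by Leiden clusters 66.1% in 21 M B6. In cells with *Xist* and no Y gene, an alternative chosen after seeing the data, the share in 6 M DTR was 0.839%, its dendritic class 55.6%, the neutrophil class 10.9%, 0% and 0% over the libraries, and the MHC class II count 6 in 6 M DTR. Without the neutrophil and monocyte classes, also chosen after seeing the data, the log2 ratio to 6 M WT was 1.30 for *Ly6c2* in 6 M DTR and 0.10 for *Lcn2* in 21 M B6, both below 0 as reported, and without the lymphoid classes *Gzma* in 6 M DTR was at -0.10. The causes were not tested. The other 207 comparisons of reported results with their alternatives stayed within the interval or 1.5 times of the reported value, and 19 did not. Of the ratios of single genes, 1045 stayed within 2-fold of the reported ratio and 72 moved further. The 3 given above, at least 2-fold as reported, changed sign. Changing the minimum of UMIs for a tested gene could not alter these ratios, and leaving out called doublets removed no C1q-lacking cell. Some of the 207 and of the 1045 were therefore fixed in advance. Scrublet called 1, 6 and 1 kept cells, too few to have worked, and no C1q-lacking cell.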

Other observations

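Of the 84 kept cells of 6 M WT with at least 10 UMIs of *S100a8* and *S100a9*, 27 were C1q-lacking cells and 4 C1q-positive cells, while 39 held 10 or more UMIs of the tendon genes and 14 were neither. In 6 M DTR and 21 M B6 such cells numbered 2 each. Leiden clusters of the C1q-lacking cells gave 6 groups. The cluster of 43 cells with *Inhba*, *Serpinb2* and *Edn1* among its leading genes held 37 cells of 6 M WT and 6 of 6 M DTR. Its raised list markers were *Ly6c2* and *Chil3*, both of the monocyte list, and with these 2 alone it was left unnamed.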
